A study of Mus musculus with 37 samples.

Results

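The genes described here are 35 members of the unfolded protein response and the integrated stress response, chosen by name as chaperones of the endoplasmic reticulum (ER), ER-associated degradation factors, stress sensors, or transcription factors and targets of the integrated stress response. They were taken from the 48795 genes counted by RNA-seq, and all 35 were among the 16799 genes that passed the filter on low counts. They comprise 14 ER chaperones and folding enzymes, 7 degradation genes, 3 sensors with Xbp1, and 10 genes of the integrated stress response. The study asked what the loss of the histone H3K4 demethylase Kdm1a does in excitatory neurons of the adult forebrain. Whole hippocampi of male mice on a C57BL/6J background were sequenced, with 3 mice per genotype and 1 poly-A library per mouse, out of 37 samples of several assays. Kdm1a-ifKO mice carried Kdm1a f/f alleles and the Camk2a-creERT2 transgene, which recombines in forebrain principal neurons after tamoxifen. Controls were littermates without the transgene, and both genotypes received tamoxifen, given at 8 weeks of age. The age at which the hippocampi for RNA-seq were taken is not given in the sources used here. The tissue also holds glia, vessels and interneurons that keep the gene, and a bulk value cannot tell fewer cells of a type from less RNA per cell.

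Proteins that enter the ER are folded there by chaperones, receive sugar chains and form disulfide bonds, and unfolded proteins that accumulate activate the sensors Ern1 (IRE1), Atf6 and Eif2ak3 (PERK). IRE1 splices Xbp1 mRNA and ATF6 is cleaved to a transcription factor, and both raise chaperone and degradation genes through promoter elements such as the ER stress response element. PERK phosphorylates eIF2alpha, the step it shares with the other kinases of the integrated stress response, which lowers translation in general but favours that of Atf4 and thereby the transcription of genes such as Ddit3, Trib3, Chac1 and Asns.

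The ER stress response element (ERSE) was searched for in RefSeq promoter windows (build GRCm38.p6), each from 250 bases before to 50 bases after a start site. Of the members, 31 of 35 had a window, and Manf, Hyou1, Derl1 and Atf6 had none. The element, searched as CCAAT, then 9 bases of any kind, then CCACG on either strand, was found in the windows of 9 of the 31 members (29.0%) and of 37 of 27025 genes in all (0.137%). The 9 members were Hspa5, Hsp90b1, Calr, Canx, Pdia6, Dnajc3, Creld2, Derl3 and Syvn1. A match describes the letters only and shows no binding. Because the members were chosen by name as genes of this response, setting these shares side by side is no test. The sites of the members named most often below are given 5′ to 3′ in the orientation of the motif, with the fixed letters in capitals, and positions are counted from the RefSeq start site.

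Hspa5, chr2:34772025-34772043, -65 to -47, on the strand of the gene: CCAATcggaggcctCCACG
Hsp90b1, chr10:86705638-86705656, -212 to -194, on the strand of the gene: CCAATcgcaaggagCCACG
Hsp90b1, chr10:86705533-86705551, -107 to -89, on the opposite strand: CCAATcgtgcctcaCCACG
Calr, chr8:84847075-84847093, -162 to -144, on the opposite strand: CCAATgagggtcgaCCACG
Canx, chr11:50325800-50325818, -145 to -127, on the strand of the gene: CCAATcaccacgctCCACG
Pdia6, chr12:17266491-17266509, -98 to -80, on the strand of the gene: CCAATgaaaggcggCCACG
Creld2, chr15:88819520-88819538, -126 to -108, on the opposite strand: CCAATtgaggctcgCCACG
Derl3, chr10:75893242-75893260, -156 to -138, on the opposite strand: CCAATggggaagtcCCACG

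For 2 of these genes, the 250 bases before the RefSeq start are shown whole, on the strand of the gene and with the same letters in capitals. They are the best known chaperone gene, Hspa5, and the member with the largest difference between genotypes, Derl3. In GENCODE M21, the annotation used here for names and positions, Hspa5 begins at 34771970 and so inside its window, whereas Derl3 begins at 75893413, after it.

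Hspa5, chr2:34771840-34772089, plus strand: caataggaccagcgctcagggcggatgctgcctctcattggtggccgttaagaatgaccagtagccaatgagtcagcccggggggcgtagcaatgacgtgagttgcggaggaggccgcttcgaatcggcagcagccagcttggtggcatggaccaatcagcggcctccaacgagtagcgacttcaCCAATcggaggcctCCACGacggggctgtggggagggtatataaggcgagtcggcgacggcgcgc
Derl3, chr10:75893148-75893397, plus strand: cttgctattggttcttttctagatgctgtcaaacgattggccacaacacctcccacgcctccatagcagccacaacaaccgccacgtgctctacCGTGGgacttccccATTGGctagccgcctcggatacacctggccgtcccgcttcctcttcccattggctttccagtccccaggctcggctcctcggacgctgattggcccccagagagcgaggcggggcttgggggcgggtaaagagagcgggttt

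Expression is given as CPM, the counts scaled by the TMM-normalized library size, and differences as log2 fold change (log2FC) of Kdm1a-ifKOs over controls with its standard error (SE). Adjusted p-values are those of the edgeR quasi-likelihood test, adjusted by Benjamini-Hochberg over all tested genes, and a gene was called when the adjusted p was under 0.05. Kdm1a itself had 79.5, 81.1 and 79.6 CPM in controls 1 to 3 and 39.3, 36.9 and 38.4 in Kdm1a-ifKOs 1 to 3, a log2FC of -1.07 (SE 0.056, adjusted p = 6.24e-08). The libraries held 18985542 to 19469947 counts, with TMM factors of 0.981 to 1.01. The first principal component (50.5% of the variance) separated the genotypes, and the second (16.4%) set control 3 and Kdm1a-ifKO 2 apart from the other libraries.

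Of the 35 members, 14 were higher in Kdm1a-ifKOs and 0 were lower. Over all tested genes, 8.85% were called, 6.04% higher and 2.82% lower. The members were chosen with earlier results of these data known, so setting these shares side by side is no test. Of the members called higher, 11 were ER chaperones or folding enzymes, and the other branches gave 1 gene each, namely Derl3, Xbp1 and Trib3. At an unadjusted p under 0.05, 18 members were higher and 0 lower, and DESeq2 called 12 higher and 0 lower. Of all 16799 tested genes, 2203 were higher and 1905 lower at an unadjusted p under 0.05. DESeq2 called 885 of them higher and 516 lower. The median log2FC was 0.17 over the 35 members and -0.003 over all tested genes. Every Kdm1a-ifKO library lay above every control library for 17 of the 35 members, which holds for 15.7% of all tested genes. For a single gene, the exact permutation test of 3 mice against 3 cannot give a two-sided p under 0.1, the value that these 17 members had. The differences were small, and 3 members had a log2FC over 0.5 together with an adjusted p under 0.05, namely Sdf2l1, Derl3 and Trib3.

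The count of 14 depended on single libraries. It was 5 without Kdm1a-ifKO 3, 6 without Kdm1a-ifKO 1, 8 without control 1 and 8 without control 2, while it was 10 without control 3 and 14 without Kdm1a-ifKO 2. Pdia3, Pdia4, Pdia6, Sdf2l1 and Derl3 were called in all 6 of these fits. Dnajb11 and Hyou1 were called in 4, Hspa5, Hsp90b1, Calr, Manf and Creld2 in 2, Xbp1 in 1 and Trib3 in 0 of them. The highest adjusted p came without Kdm1a-ifKO 3 for Dnajb11 (0.0801), Hyou1 (0.0783), Hsp90b1 (0.155), Calr (0.169), Manf (0.0759), Xbp1 (0.196) and Trib3 (0.157), without control 3 for Hspa5 (0.0682) and without control 2 for Creld2 (0.0784). Over the same fits the median log2FC of the chaperones lay between 0.25 and 0.30.

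**Figure D1:**
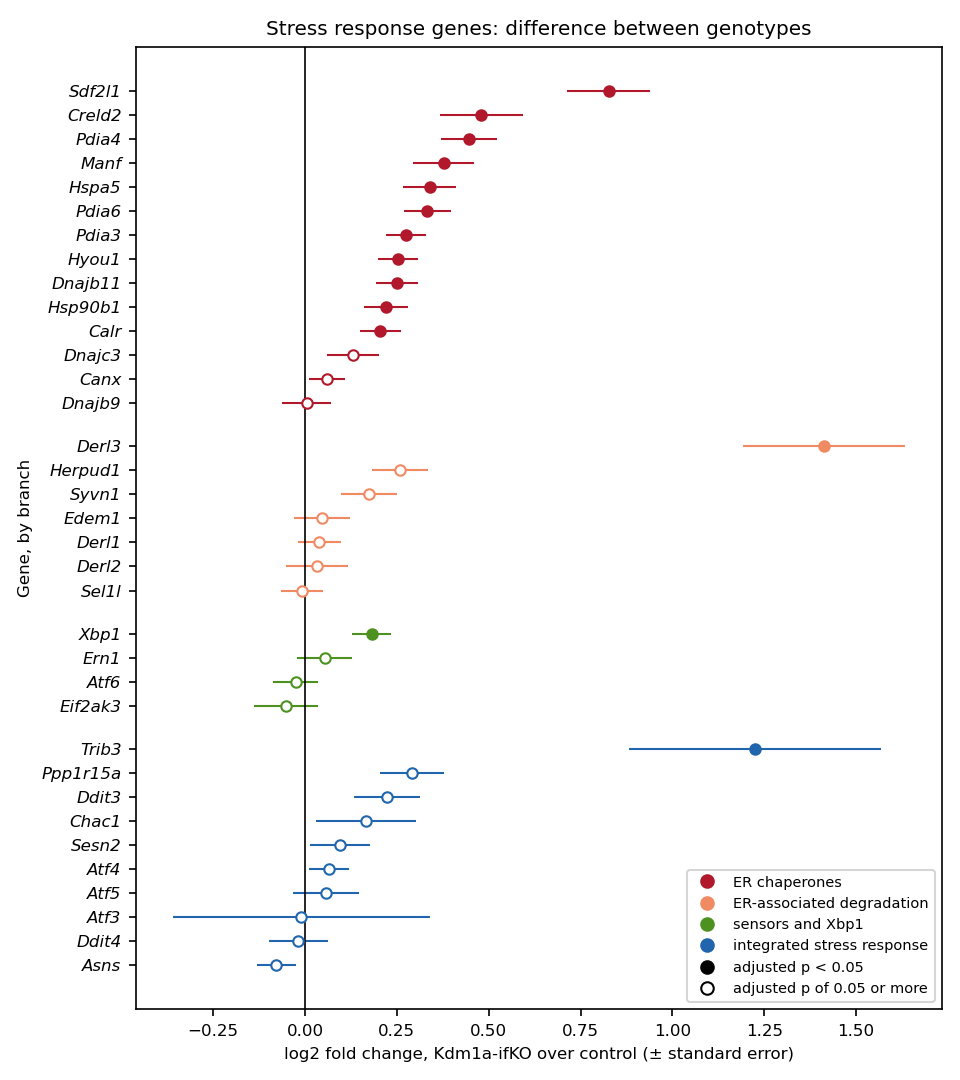
The log2 fold change of each of the 35 members (x axis, bars are ± 1 standard error, 3 mice per genotype), grouped by branch and sorted within it. Filled points have an adjusted p under 0.05: 11 of the 14 chaperones (red) are filled and all 14 lie at or right of 0, whereas the other branches have 1 filled point each.

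Among the ER chaperones, 11 of 14 were higher in Kdm1a-ifKOs and 0 lower. Their median log2FC was 0.26, in a range from 0.00 to 0.83. DESeq2 also called 11 higher and 0 lower. Summed over the 14 genes, expression was 2120 to 2230 CPM in the controls and 2380 to 2680 CPM in the Kdm1a-ifKOs. Hspa5 (BiP), the ER member of the HSP70 family that binds unfolded proteins and holds the sensors inactive, had 294, 315 and 307 CPM in controls 1 to 3 and 398, 339 and 422 in Kdm1a-ifKOs 1 to 3. The groups did not overlap, and Kdm1a-ifKO 2 was the closest to the controls. The log2FC of Hspa5 (ENSMUSG00000026864, chromosome 2, from 34771970 to 34777547) was 0.34 (SE 0.073, adjusted p = 0.0144), or 26.5% more. Hyou1, a large chaperone that acts as an exchange factor for BiP, had 146, 143 and 143 CPM in controls against 173, 161 and 181 CPM in Kdm1a-ifKOs. All its Kdm1a-ifKO libraries were above the controls (log2FC 0.25, SE 0.055, adjusted p = 0.0115). Hsp90b1 (GRP94), the HSP90 of the ER, had 321, 335 and 363 CPM in controls against 414, 368 and 405 CPM in Kdm1a-ifKOs. Its groups came close, with 363 CPM in control 3 and 368 CPM in Kdm1a-ifKO 2 (log2FC 0.22, SE 0.060, adjusted p = 0.0381).

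Of the 3 J proteins, which stimulate BiP, 1 was called. Dnajb11 (ERdj3), which passes unfolded clients to BiP, had 55.5, 58.3 and 56.1 CPM in controls and 68.6, 64.2 and 69.3 in Kdm1a-ifKOs. The Kdm1a-ifKO libraries were all above the controls (log2FC 0.25, SE 0.057, adjusted p = 0.0159). Dnajb9 (ERdj4), a J protein that is a known target of spliced Xbp1, lay between 24.5 and 25.2 CPM in controls and between 24.8 and 25.5 in Kdm1a-ifKOs. Its groups overlapped (log2FC 0.00, SE 0.066, adjusted p = 0.982). Dnajc3 (p58IPK), which also inhibits PERK, lay between 64.3 and 74.8 CPM in controls and between 71.4 and 82.2 in Kdm1a-ifKOs, with overlap (log2FC 0.13, SE 0.070, adjusted p = 0.278).

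Among the lectin chaperones that hold glycoproteins in the folding cycle, the soluble Calr had 428, 442 and 435 CPM in controls and 527, 460 and 516 in Kdm1a-ifKOs. The groups did not overlap for Calr (log2FC 0.21, SE 0.056, adjusted p = 0.0384). Its membrane-bound relative Canx lay between 327 and 349 CPM in controls and between 352 and 356 in Kdm1a-ifKOs. The Canx groups did not overlap either, but the difference was small and was not called (log2FC 0.06, SE 0.048, adjusted p = 0.478). The difference between the log2FC of Calr and Canx was not tested.

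The protein disulfide isomerases among the members were all higher. Pdia3 (ERp57), which works with Calr and Canx on glycoproteins, had 214, 224 and 235 CPM in controls and 279, 259 and 276 in Kdm1a-ifKOs, without overlap (log2FC 0.27, SE 0.054, adjusted p = 0.00657). Pdia4 (ERp72) had 48.2, 44.8 and 45.7 CPM in controls and 62.1, 56.6 and 70.3 in Kdm1a-ifKOs. It was 36.2% higher (log2FC 0.45, SE 0.077, adjusted p = 0.00271). Pdia6 (P5), an isomerase that binds BiP, had 126, 134 and 135 CPM in controls and 171, 150 and 176 in Kdm1a-ifKOs. Its groups did not overlap (log2FC 0.33, SE 0.064, adjusted p = 0.0058).

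The largest difference among the chaperones was that of Sdf2l1, a partner of Dnajb11 in the BiP cycle. It had 10.4, 9.71 and 9.83 CPM in controls 1 to 3 and 18.2, 14.8 and 20.0 in Kdm1a-ifKOs 1 to 3. The lowest Kdm1a-ifKO library was thus well above the highest control (log2FC 0.83, SE 0.113, adjusted p = 4.35e-04), and the gene was 77.3% higher. Creld2, a secreted ER protein induced by ER stress, had 15.9, 15.6 and 16.5 CPM in controls and 20.8, 19.3 and 26.9 in Kdm1a-ifKOs. Its groups did not overlap, and the log2FC was 0.48 (SE 0.114, adjusted p = 0.0228) over all libraries and 0.33 (adjusted p = 0.0655) without Kdm1a-ifKO 3, the highest. Manf, an ER-resident protein that is secreted under stress and acts as a neurotrophic factor, had 42.1, 39.3 and 37.9 CPM in controls and 54.3, 44.6 and 56.0 in Kdm1a-ifKOs. The groups did not overlap (log2FC 0.38, SE 0.084, adjusted p = 0.0162).

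Across all 14 chaperones, Kdm1a-ifKO 2 was the lowest of the Kdm1a-ifKO libraries. The median log2 ratio of the 14 genes to the mean of the controls was 0.30 in Kdm1a-ifKO 1, 0.16 in Kdm1a-ifKO 2 and 0.31 in Kdm1a-ifKO 3, against -0.03 to 0.01 in the controls. All Kdm1a-ifKO mice were therefore above all control mice for the branch as a whole, and 1 mouse was less so.

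**Figure D2:**
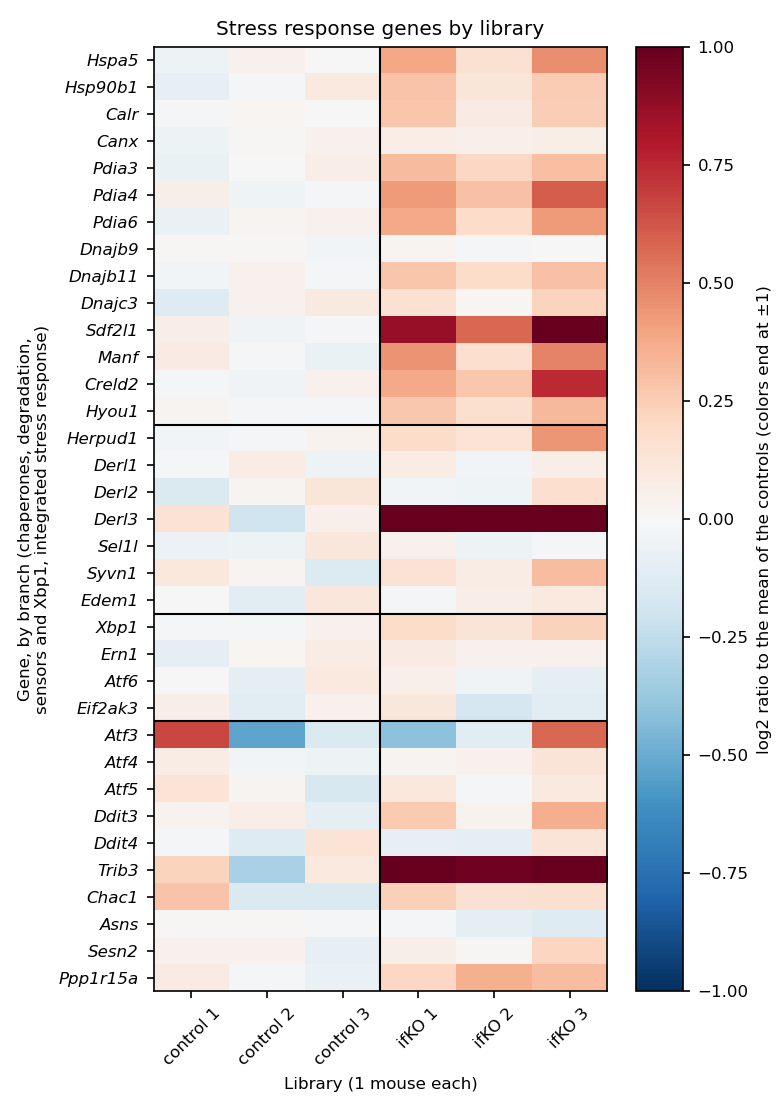
Log2 ratio of each member (rows, by branch) in each library (columns) to the mean of the 3 controls, with red for higher and blue for lower and the color scale ending at ±1. The chaperone block at the top is red in the 3 Kdm1a-ifKO columns, apart from the pale rows of Canx and Dnajb9 and the pale value of Dnajc3 in Kdm1a-ifKO 2. Derl3 and Trib3 are dark in all Kdm1a-ifKO libraries, while Atf3 varies within both genotypes.

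**Figure D3:**
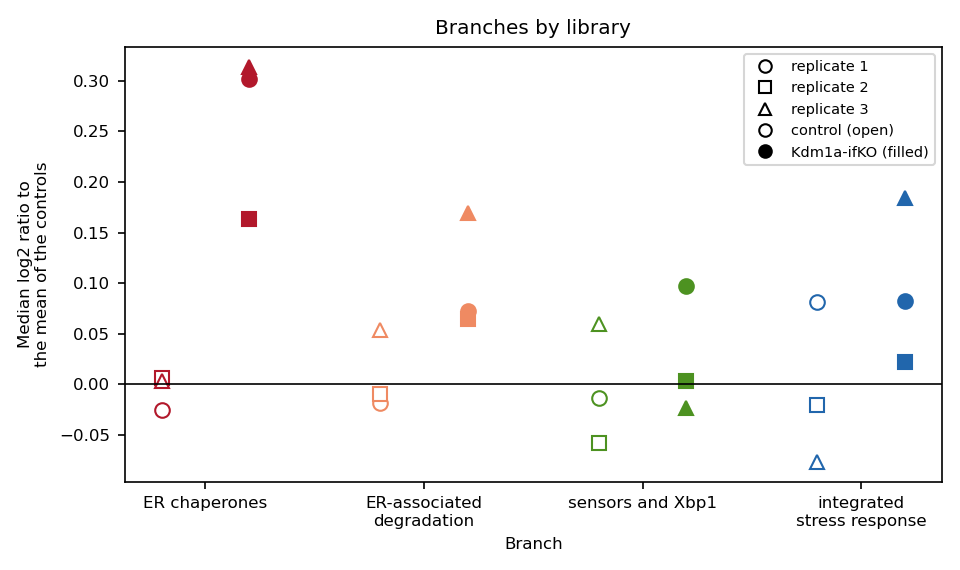
Median log2 ratio to the mean of the controls over the genes of each branch, 1 point per library (open for controls, filled for Kdm1a-ifKOs, shape for replicate). The chaperone medians of the Kdm1a-ifKO libraries (0.16 to 0.31) are apart from those of the controls (-0.03 to 0.01). Those of ER-associated degradation are apart by less (0.06 to 0.17 against -0.02 to 0.05), and the points of the sensors with Xbp1 and of the integrated stress response overlap between genotypes.

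Of the 7 genes of ER-associated degradation, the route by which misfolded proteins are sent to the cytosol for destruction, 1 was higher and 0 were lower (3 higher and 0 lower at an unadjusted p under 0.05, and 1 and 0 with DESeq2), and the median log2FC was 0.05. The gene called was Derl3, a stress-inducible member of the derlin family that takes part in moving glycoproteins out of the ER. It is weakly expressed, with 23, 18 and 21 counts in controls and 65, 49 and 57 counts in Kdm1a-ifKOs. In CPM these were 1.20, 0.945 and 1.13 against 3.34, 2.49 and 2.93, with no overlap. Derl3 (ENSMUSG00000009092, chromosome 10, from 75893413 to 75895941) was 2.66-fold higher, with a log2FC of 1.41 (SE 0.221, adjusted p = 0.00132), the largest among the 35 members. Its relatives Derl1 and Derl2, which are more abundant, had a log2FC of 0.04 (SE 0.059, adjusted p = 0.737) and 0.03 (SE 0.084, adjusted p = 0.860), with overlapping groups.

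Herpud1, a membrane protein that organises the degradation complex, came close to the threshold. It had 48.3, 48.8 and 50.4 CPM in controls and 55.7, 54.0 and 66.8 in Kdm1a-ifKOs, without overlap (log2FC 0.26, SE 0.077, adjusted p = 0.0553). Herpud1 was called with upper-quartile normalization (adjusted p = 0.0282), without a filter on low counts (0.002), with at least 10 counts in total (0.0487) and without Kdm1a-ifKO 2 (0.0328). Its log2FC dropped to 0.16 without Kdm1a-ifKO 3 (adjusted p = 0.226) and to 0.14 once GC content and length were corrected for (0.238). Syvn1 (HRD1), the ubiquitin ligase of the complex, had a log2FC of 0.17 (SE 0.076, unadjusted p = 0.0402, adjusted p = 0.181) and overlapping groups. Its partner Sel1l and the mannosidase-like Edem1 had a log2FC of -0.01 (SE 0.058) and 0.05 (SE 0.076), with adjusted p-values of 0.953 and 0.760.

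The sensors themselves were not called. Ern1 lay between 18.7 and 21 CPM in controls and between 20.5 and 21.1 in Kdm1a-ifKOs (log2FC 0.05, SE 0.076, adjusted p = 0.721). Atf6 had a log2FC of -0.03 (SE 0.062, adjusted p = 0.839) and Eif2ak3 one of -0.05 (SE 0.086, adjusted p = 0.764), both with overlapping groups. Xbp1, whose mRNA IRE1 splices and which is itself a target of ATF6, had 93.3, 93.3 and 97.7 CPM in controls and 107, 104 and 111 in Kdm1a-ifKOs. The libraries of the genotypes did not overlap, and the difference was 13.3% (log2FC 0.18, SE 0.052, adjusted p = 0.0472). This call was lost with DESeq2 (adjusted p = 0.07) and in 5 of the 6 fits with 1 library left out (adjusted p up to 0.196, log2FC between 0.16 and 0.21). With GC content and length corrected for, the log2FC of Xbp1 was 0.06 (adjusted p = 0.507). Counts per gene do not separate spliced from unspliced Xbp1, nor do they show cleavage of ATF6 or phosphorylation of PERK.

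In the integrated stress response, 1 of 10 genes was higher and 0 were lower (3 higher and 0 lower at an unadjusted p under 0.05, and 0 and 0 with DESeq2). The median log2FC was 0.08, and it was -0.10 once GC content and length were corrected for, which moved the median of all tested genes to -0.04. With 1 library left out, the median of the branch lay between 0.04 (without Kdm1a-ifKO 3) and 0.19 (without control 1). Atf4, the central transcription factor of the response, had 138, 128 and 126 CPM in controls and 133, 135 and 142 in Kdm1a-ifKOs. The groups overlapped (log2FC 0.07, SE 0.054, adjusted p = 0.504), although Atf4 is controlled mainly at translation, which these libraries do not measure. Asns, the asparagine synthetase induced by Atf4, lay between 97.4 and 99.9 CPM in controls and between 90.6 and 97.6 in Kdm1a-ifKOs (log2FC -0.08, SE 0.052, adjusted p = 0.389).

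The member called was Trib3, a pseudokinase induced by Atf4 and Ddit3. It was the least expressed of the 35, with 9, 6 and 8 counts in controls and 18, 16 and 22 counts in Kdm1a-ifKOs. In CPM these were 0.471, 0.315 and 0.430 against 0.926, 0.812 and 1.13, without overlap, a 2.34-fold difference (log2FC 1.22, SE 0.343, adjusted p = 0.0426). The call did not hold in any of the 6 fits with 1 library left out (adjusted p from 0.0518 to 0.157) nor with DESeq2 (0.182), while the log2FC stayed between 1.07 and 1.35.

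Ppp1r15a (GADD34), which directs the dephosphorylation of eIF2alpha, had 14.6, 13.6 and 13.1 CPM in controls and 15.9, 17.6 and 17.0 in Kdm1a-ifKOs. Its groups did not overlap, but it was not called (log2FC 0.29, SE 0.087, adjusted p = 0.0543). Ppp1r15a was called with upper-quartile normalization (adjusted p = 0.0399) and without a filter on low counts (0.0358). It was not called in any of the 6 fits with 1 library left out. Its log2FC was 0.13 (adjusted p = 0.364) once GC content and length were corrected for. Ddit3 (CHOP), a transcription factor linked to death of stressed cells, lay between 20.4 and 22.9 CPM in controls and between 22.4 and 28.2 in Kdm1a-ifKOs, with overlap at Kdm1a-ifKO 2 (log2FC 0.22, SE 0.090, adjusted p = 0.146). Without Kdm1a-ifKO 2, Ddit3 was called (log2FC 0.31, adjusted p = 0.0464), and without Kdm1a-ifKO 3 its log2FC was 0.15 (adjusted p = 0.438). None of the other 4 fits with 1 library left out called it. The other genes were Atf3, Atf5, Ddit4, Chac1 and Sesn2, with a log2FC of -0.01, 0.06, -0.02, 0.17 and 0.10 and adjusted p-values from 0.489 to 0.992. With GC content and length corrected for, Atf4, Atf5, Chac1 and Sesn2 had a log2FC of -0.10, -0.23, -0.03 and -0.13, and none of them was called (adjusted p from 0.0676 to 0.919). Atf3 had few reads, 18 to 42 counts in controls and 20 to 40 in Kdm1a-ifKOs, and they varied between mice of both genotypes. Its SE of 0.350 leaves a wide range of differences undetectable with these libraries.

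The counting of the deposited table may assign reads differently where genes overlap, and the strand setting of the counting is not given in the sources used here. Among the called members, Hsp90b1, Pdia3, Pdia6, Dnajb11 and Manf overlap a gene on the opposite strand (1810014B01Rik, Catsper2, Atp6v1c2 and Gm30505, and for Manf 4930524O07Rik, Dcaf1 and Gm37612), and on their own strand Manf overlaps Rbm15b and Hsp90b1 overlaps Gm15344 and Gm25745. Hspa5, Calr, Sdf2l1, Creld2, Hyou1, Derl3, Xbp1 and Trib3 overlap no other annotated gene, and Pdia4 only the microRNA gene Mir704. Herpud1, Syvn1, Atf5, Derl2, Eif2ak3, Ppp1r15a, Sesn2, Atf6, Atf3, Dnajb9 and Ddit3 also overlap other annotated entries, and their values are uncertain to that extent. For Ddit3, the overlap on its own strand is with a second entry of the same name, and the entry with more reads was used.

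Levels were compared between genes as TPM, which divides the counts by exon length. In controls, Calr was the most abundant member with 600 ± 8.69 TPM (SD, n = 3), followed by Hsp90b1 with 335 ± 19.3 TPM. Canx with 288 ± 8.44 TPM, Hspa5 with 287 ± 9.24 TPM and Pdia3 with 284 ± 12.1 TPM came next and did not differ beyond their spread. In Kdm1a-ifKOs the same genes had 695 ± 44.7 (Calr), 392 ± 21.4 (Hsp90b1), 301 ± 0.938 (Canx), 365 ± 38.0 (Hspa5) and 345 ± 11.6 TPM (Pdia3), so that Canx was the lowest of these 5. Atf4 (220 ± 11.3 TPM) was the most abundant gene of the integrated stress response in controls. Asns, Pdia6 and Ddit4 followed with 144, 140 and 135 TPM and overlapping library ranges. At the lower end, Ern1 had 9.71 ± 0.517 TPM, Atf3 2.69 ± 1.22 TPM, Derl3 2.18 ± 0.268 TPM and Trib3 0.758 ± 0.152 TPM, and the ranges of Atf3 and Derl3 overlapped. The members with the largest fold changes, Derl3 and Trib3, were thus the least expressed. Among the 30 members with at least 10 CPM in controls, 11 were higher, while 584 of 10246 tested genes at that level were (5.7%). The shares at this level were not compared by a test.

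The members were next grouped by the promoter elements described above. A second form of the element, ERSE-II (ATTGG, 1 base of any kind, then CCACG, on either strand), was found in the windows of Herpud1 and Dnajb11, neither of which held the first form, and in 0.0444% of all genes.

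Herpud1, chr8:94386377-94386387, -52 to -42, on the strand of the gene: ATTGGgCCACG
Dnajb11, chr16:22857852-22857862, 8 to 18, on the strand of the gene: ATTGGcCCACG

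Of the 11 members with an ERSE or ERSE-II, 7 were higher and their median log2FC was 0.25. Of the 20 members with a window but neither element, 5 were higher (Pdia3, Pdia4, Sdf2l1, Xbp1 and Trib3), with a median of 0.06. The groups differ in branch, since the members with the element are mostly chaperones, and the difference was not tested. Canx and Dnajc3 carry the element and were not called, and Sdf2l1, the most changed chaperone, has neither form in its window. Beyond the members, 9 other tested genes had the ERSE in their window, and 1 of them was higher and 0 lower, with a median log2FC of 0.12. That gene was Zfp57, a zinc finger gene named here after its values were seen, with a control mean of 12.6 ± 1.44 CPM and a Kdm1a-ifKO mean of 18.5 ± 1.30 CPM (SD, n = 3 each, log2FC 0.56, adjusted p = 0.00323). The letters TGACGTGG, an element bound by spliced XBP1 and ATF6, were in the windows of 0 of the 31 members and of 0.714% of all genes. The C/EBP-ATF response element, to which Atf4 binds (searched as TGATGNAAN on either strand), was in the windows of 5 members, Herpud1, Atf3, Trib3, Chac1 and Asns, and of 4.5% of all genes. Trib3 was the only one of these 5 that was called, and its site lies just after the RefSeq start.

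Trib3, chr2:152344039-152344047, 14 to 22, on the opposite strand: TGATGtAAa
Chac1, chr2:119351048-119351056, -194 to -186, on the opposite strand: TGATGcAAc
Asns, chr6:7693224-7693232, -23 to -15, on the strand of the gene: TGATGaAAc

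**Figure D4:**
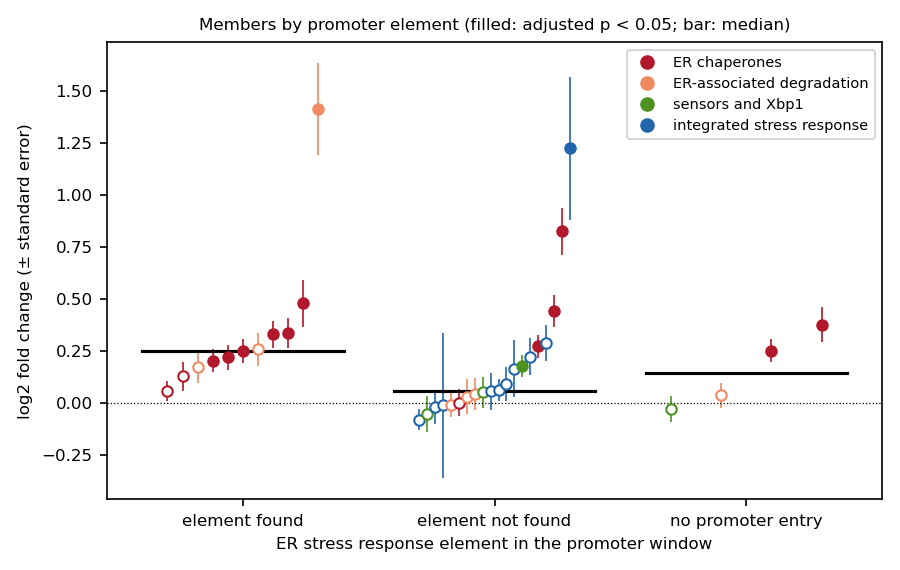
Log2 fold change (y axis, bars are ± 1 standard error) of members with an ERSE or ERSE-II in the promoter window (11 genes), with neither (20) and without a window (4). Filled points have an adjusted p under 0.05 and colors give the branch. The medians (black bars) are 0.25, 0.06 and 0.15, and called genes occur in each group.

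Further genes of the same pathways were listed to see how far the difference reached. Of 114 genes in 6 lists, 111 were tested, and 3 were higher and 0 lower, with a median log2FC of 0.01. At an unadjusted p under 0.05, 13 were higher and 11 lower, and DESeq2 called 2 higher and 0 lower. Among all 16799 tested genes, 2203 were higher and 1905 lower at an unadjusted p under 0.05. Of these 16799 genes, edgeR called 6.04% higher and DESeq2 5.27%. The share of higher genes among the 111 was thus no larger than among all tested genes by any of these counts. The shares were not compared by a test. The lists held other folding factors of the ER, other degradation factors, translocation genes, eIF2 kinases with eIF2 and eIF2B subunits, amino acid and tRNA synthetase targets of Atf4, and other stress-induced genes. The first of the genes called was Creb3l1 (OASIS), a membrane-bound transcription factor of the ER related to Atf6, with 4.92, 3.83 and 3.28 CPM in controls and 6.79, 6.65 and 8.52 in Kdm1a-ifKOs (log2FC 0.87, SE 0.171, adjusted p = 0.00657). Stc2, a secreted glycoprotein induced by ER stress, had 5.54, 6.98 and 6.18 CPM in controls and 9.82, 8.33 and 12.7 in Kdm1a-ifKOs (log2FC 0.72, SE 0.159, adjusted p = 0.0145). For both genes the groups did not overlap. The third was Slc1a4, a transporter of neutral amino acids, with 79.5, 83.7 and 78.0 CPM in controls and 89.4, 92.4 and 94.7 in Kdm1a-ifKOs (log2FC 0.20, SE 0.054, adjusted p = 0.0376). P4hb, the main protein disulfide isomerase, was 120 to 130 CPM in controls and 137 to 140 CPM in Kdm1a-ifKOs, and was not called (log2FC 0.17, adjusted p = 0.061). Eif2ak4 (GCN2), the eIF2 kinase that senses amino acid shortage, was 36.0 to 38.7 CPM in controls and 28.3 to 34.1 CPM in Kdm1a-ifKOs, and was not called either (log2FC -0.26, SE 0.076, adjusted p = 0.0507). Translocation genes and eIF2 genes had medians of -0.01 and -0.05, with 0 of 17 and 0 of 13 called by either edgeR or DESeq2. In those lists, 1 and 0 genes were higher and 1 and 2 lower at an unadjusted p under 0.05.

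Other stress programs were listed for comparison. Of 14 heat shock genes, 4 were higher and 0 lower (4 and 3 at an unadjusted p under 0.05, and 4 and 0 with DESeq2), with a median of 0.05. The list is mainly cytosolic but also holds the mitochondrial chaperone genes Hspd1 and Hspe1 and the transcription factors Hsf1 and Hsf2. Hspa1b, an inducible cytosolic HSP70, had 5.18, 4.36 and 5.91 CPM in controls and 15.6, 13.9 and 18.8 in Kdm1a-ifKOs (log2FC 1.64, SE 0.142, adjusted p = 8.52e-06). Its near-identical copy Hspa1a (log2FC 0.97, adjusted p = 0.00457) shares sequence with it, so the split of reads between them is uncertain. Bag3, a partner of HSP70 proteins, and the small heat shock protein gene Hspb1 had a log2FC of 0.97 (adjusted p = 1.63e-04) and 0.81 (adjusted p = 0.00959). Of 14 genes induced by glucocorticoids, 0 were higher and 1 was lower, namely Klf9, which fell by 0.28 on the log2 scale (adjusted p = 0.00635). At an unadjusted p under 0.05, 1 of these genes was higher and 3 lower, and DESeq2 called 0 and 2. Of 12 immediate early genes, which report recent neuronal activity, 0 were called (1 higher and 1 lower at an unadjusted p under 0.05, and 1 and 1 with DESeq2).

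**Figure D5:**
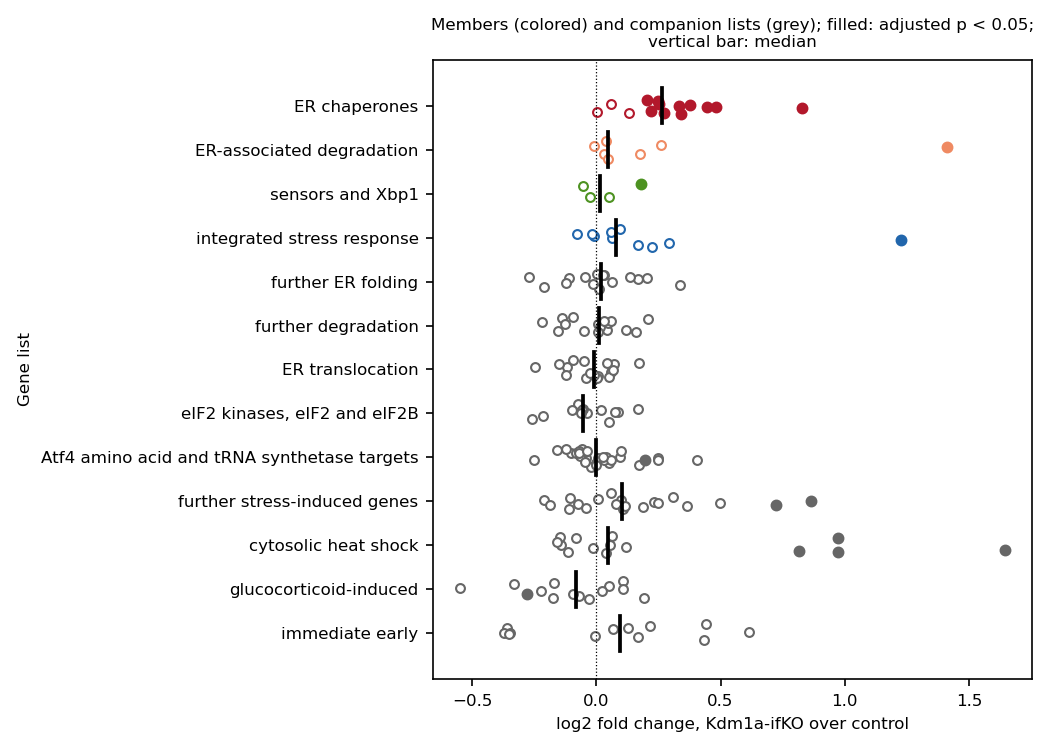
Log2 fold change of the members by branch (colored) and of the further pathway and comparison lists (grey), 1 point per gene, filled where the adjusted p was under 0.05, with the median of each list as a black bar. Among the lists shown, which leave out the cell type markers, the chaperones have the rightmost median (0.26). The medians of the 6 further pathway lists lie between -0.05 and 0.10.

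Markers of cell types in the tissue were examined in the same libraries. Markers of microglia were called higher in 3 of 5 genes (Cx3cr1, Tmem119 and Csf1r), and their summed level was 227 to 249 CPM in controls and 262 to 323 CPM in Kdm1a-ifKOs. Their median log2FC was 0.33, against 0.26 for the chaperones, and 4 of the 5 lay above all controls. At an unadjusted p under 0.05, 5 were higher and 0 lower, and DESeq2 called 3 higher and 0 lower. Within the Kdm1a-ifKOs, library 1 was the lowest for all 5 microglial markers, and library 2 was the lowest for all 14 chaperones. Some of these chaperones differed little between the Kdm1a-ifKO libraries, and an order of so few libraries cannot show which cells the RNA came from. Of 5 astrocyte markers, 1 was higher (Slc1a3, log2FC 0.22, adjusted p = 0.0161), Gfap had the largest difference of the list (log2FC 0.38, adjusted p = 0.107), and the sum was 1590 to 1720 CPM in controls and 1860 to 2040 CPM in Kdm1a-ifKOs. For 3 of the 5 astrocyte markers, all Kdm1a-ifKO libraries lay above all controls. At an unadjusted p under 0.05, 2 of them were higher and 0 lower, and DESeq2 called 2 higher and 0 lower. Of 5 markers of excitatory neurons, 1 was lower (Neurod6, log2FC -0.36, adjusted p = 0.00419), with sums of 6490 to 6800 and 6430 to 7110 CPM. Of 5 interneuron markers, 0 were called by edgeR or DESeq2 and 2 were lower at an unadjusted p under 0.05, Gad2 (log2FC -0.16, adjusted p = 0.0599) and Pvalb (log2FC -0.23, adjusted p = 0.0529), both below all controls. Their sum was 788 to 856 CPM in controls and 766 to 799 in Kdm1a-ifKOs. Of the 5 markers each of oligodendrocytes, endothelial cells and ependyma, 0 were called by either tool, with 0, 0 and 1 gene lower and 0 higher at an unadjusted p under 0.05. The sums of these lists overlapped between genotypes. Of 5 tested markers of the choroid plexus, a secretory epithelium, 1 was higher. Its main transcript Ttr had 32.0, 10.7 and 7.04 CPM in controls and 3.29, 6.24 and 8.16 in Kdm1a-ifKOs, and Kl, the gene called (log2FC 1.27, adjusted p = 1.32e-07), is also expressed by neurons. The part of glial RNA in the chaperone difference was not tested.

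The CTCF ChIA-PET library, made from sorted nuclei of hippocampal excitatory neurons, gives the loops around the members. Its labels give wild type genotype, male sex and tamoxifen, and per the methods the nuclei were sorted with the Camk2a-creERT2 and CAG-Sun1/sfGFP transgenes, so these mice are not the controls of the RNA-seq. With 1 library there is no replicate, and it says nothing about Kdm1a-ifKOs. Of the 27786 loops, each with at least 3 paired-end tags (PETs), 1 or more had an anchor within 10 kb of 21 of the 35 members (60.0%), of 8 of the 14 called members (57.1%) and of 56.9% of the 16752 tested genes with a position. Atf4 had the most, with 22 loops and 174 PETs, whereas Hspa5, Hsp90b1, Calr, Canx, Pdia3, Sdf2l1 and Xbp1 had 0. Among the called members, Pdia6 had 5 loops (177 PETs), Derl3 3 loops (12 PETs) and Trib3 1 loop (5 PETs).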

How the data were processed

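RNA-seq of 3 control and 3 Kdm1a-ifKO hippocampi was used. The authors made the deposited raw counts from single-end poly-A reads, trimmed with cutadapt 1.18, aligned to mm10 (GRCm38) with HISAT2 2.1.0, filtered on mapping quality and nuclear chromosomes, and counted per Ensembl gene with HTSeq 0.11.1. The authors' PET counts per CTCF loop come from ChIA-PIPE. No other table was analysed here.

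Ensembl IDs were given symbols by GENCODE M21, which held 48349 (99.1%) of the 48795 IDs. Genotypes were compared with edgeR 4.0.16 in R 4.3.3 (filterByExpr, TMM, robust quasi-likelihood F test, genotype only, Benjamini-Hochberg adjustment over 16799 genes), tested on simulated data. TPM used summed exon length, and log2 ratios per library a prior count of 0.5. Nothing but the replicate numbers and littermate status ties the mice of different genotypes together. At the depth of these libraries (18985542 to 19469947 counts), both the spread between mice and counting error enter the precision. Counting error weighs more where a gene has fewer reads. Summed over the controls, Calr had 24675 counts, Sdf2l1 566, Chac1 423, and the weakly expressed Derl3 and Trib3 62 and 23. The parts of the 2 sources were not separated. Atf3 is also weakly expressed, but its counts spread widely between mice of both genotypes as well.

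The members and lists were chosen with earlier results of these data known. Genes named are all members, Kdm1a, and any further listed gene with an adjusted p under 0.05 or that define a cell type. P4hb, Eif2ak4, Gad2, Pvalb, Gfap and Zfp57 were named after their values were seen. Members called, or with an unadjusted p under 0.05 and no overlap, are given by library. Alternatives were DESeq2 1.42.0, its size factors in edgeR, upper-quartile scaling, all genes with a count, a minimum of 10 counts summed, a replicate block, each library left out, an absolute log2FC over 0.5 as well, and, added after seeing the data, a correction for GC content and length (mgcv 1.9.3).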

Additional observations from a re-analysis of the deposited data

How the results depend on the processing

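The Kdm1a difference, the median log2FC of the members and the count of 0 members lower kept their direction and call under every alternative run. With 1 library left out, Kdm1a lay between -1.09 and -1.04 and the member median between 0.15 and 0.21, while the members called higher ranged from 5 (without Kdm1a-ifKO 3) to 14 (without Kdm1a-ifKO 2), with 6 without Kdm1a-ifKO 1 and 8 without control 1 or control 2. An absolute log2FC over 0.5 as well left 3 members, where 14 had been called. Of the further pathway genes, 3 were higher, which became 7 with upper-quartile normalization, 8 without a filter on low counts, and 1 to 3 with 1 library left out (1 without Kdm1a-ifKO 3). The 0 lower became 3 without a filter on low counts, 1 with at least 10 counts in total, 5 after the GC content and length correction, chosen after seeing the data, and 0 to 1 with 1 library left out (1 without Kdm1a-ifKO 2). That correction gave 10 members higher, 5 of the 14 calls (Calr, Dnajb11, Creld2, Xbp1 and Trib3) being lost and Dnajc3 gained, and over all genes 849 higher and 1224 lower, against 1014 and 473 without it. The cause was not tested.

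Of 455 values of single members over the alternatives, 371 kept direction and side of the threshold, 47 lost the call, 8 gained it and 29 changed sign, 0 of these being called with either sign. With GC content and length corrected for, the sign changed for Derl1 (-0.009), Sel1l (0.035), Atf6 (0.06), Atf4 (-0.10), Atf5 (-0.23), Chac1 (-0.029) and Sesn2 (-0.13), with upper-quartile normalization for Sel1l (0.019), Atf6 (0), Atf3 (0.014) and Ddit4 (0.009), and with the replicate block for Atf3 (0.005). With 1 library left out, it changed for Derl2 (-0.040 to 0.097), Edem1 (-0.008 to 0.11), Dnajb9 (-0.007 to 0.012), Sel1l (-0.039 to 0.054), Atf6 (-0.072 to 0.029), Atf5 (-0.015 to 0.13), Ddit4 (-0.095 to 0.058), Eif2ak3 (-0.14 to 0.004) and Atf3 (-0.34 to 0.41). The replicate numbers did not pair the mice: libraries of the same number had correlations of their deviations of -0.031, -0.087 and -0.141. Between libraries of different number they reached 0.154 (control 3 with Kdm1a-ifKO 2), and a shared litter or batch in another order was not tested. With the replicate block, 10 members were called (Hsp90b1, Calr, Xbp1 and Trib3 passed the threshold without the block only), with a log2FC of -1.07 for Kdm1a, and over all genes 797 were higher and 249 lower.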
